A study of Homo sapiens with 6 samples.

Results

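The small CTD phosphatases CTDSPL, CTDSP1 and CTDSP2, the pocket proteins RB1, RBL1 and RBL2, the D-type cyclins CCND1 and CCND3 and their kinases CDK4 and CDK6 are described here as a group of 10 genes. They were selected on function, with their measured differences in FPKM and estimated counts between the groups already known, and were taken by gene symbol from a table of 37202 genes, and all 10 passed the filter on low counts that left 21509 genes to test. RNA came from HK2, an immortalised line of human proximal tubule cells, with 3 Control libraries (genotype given as normal) and 3 NR3C2-OE libraries from cells transfected, by a cationic lipid, with a plasmid that overexpresses NR3C2, the mineralocorticoid receptor. Treatment of the Control cells, time from transfection to harvest, use of a receptor ligand and origin from separate cultures are not stated in the labels. Any p-value here is thus set against a library-to-library spread that may be technical.

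The retinoblastoma protein RB1 and its relatives RBL1 (p107) and RBL2 (p130) bind E2F transcription factors and hold back the genes of S phase. D-type cyclins with CDK4 or CDK6 phosphorylate the pocket proteins and release E2F, and CTDSPL, also known as RBSP3, removes phosphates from RB1. The small CTD phosphatases also act on the C-terminal tail of RNA polymerase II, on SMAD proteins and on the neuronal gene repressor REST. HK2 was immortalised with human papillomavirus oncogenes, of which the E7 protein binds pocket proteins.

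Each of the 3 phosphatase genes carries a microRNA of the miR-26 family in an intron, on its own strand. MIR26A1 lies in CTDSPL at chr3:37969413-37969434, MIR26A2 in CTDSP2 at chr12:57824658-57824679 and MIR26B in CTDSP1 at chr2:218402657-218402677 (RefSeq, GRCh38.p14; mature 5p strands). No exon of a GENCODE 29 basic transcript of the host gene overlapped them. The mature sequences are shown because the host genes are described throughout; capitals mark the seed, bases 2 to 8, which all 3 loci share.
miR-26a-5p: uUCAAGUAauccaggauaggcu
miR-26b-5p: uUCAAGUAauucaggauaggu
These libraries did not measure mature microRNAs, and the rows of the precursors MIR26A1 and MIR26A2 held at most 0.0577 and 0.259 FPKM. The 3′ UTR of each gene was taken from its GENCODE 29 basic coding transcript with the longest coding sequence. The letters TACTTGA, the reverse complement of the seed as DNA, were searched there on the transcript strand. They occurred in 9.9% of 19094 genes with such a UTR and in 2 of the 10 genes, RB1 and CDK6. CDK6 is a published target of miR-26. Its 3′ UTR of 10219 bases held 2 matches, and 51.2% of 207 genes with a UTR of 0.8 to 1.25 times that length held at least 1. The matches lie at chr7:92608040-92608067 and chr7:92606110-92606137, minus strand. The RB1 match lies at chr13:48480871-48480898, plus strand, in a UTR of 1819 bases, where 12.5% of 2419 genes of like UTR length held a match. The sites are printed in GRCh38 with the match in capitals.
CDK6 site 1: tacccgttgtaccctTACTTGAaagttt
CDK6 site 2: tactgtatttcttcaTACTTGAaattca
RB1 site: aaagtacccatctagTACTTGAaaaagt
A match describes letters only. RB1 and CDK6 mRNA had log2 fold changes of 0.03 and -0.08. The median log2 fold change was -0.00062 over 1572 tested genes with a match and 0.0027 over 12050 without.

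Estimated counts summed to 77737375 to 132533971 per library, with 28440 to 30785 genes above 0. NR3C2 itself (ENSG00000151623) was at 5.97, 6.26 and 5.16 FPKM (fragments per kilobase of transcript, scaled to library size) across Control libraries 1 to 3 and at 12.1, 6.95 and 7.41 across NR3C2-OE libraries 1 to 3. All 3 NR3C2-OE libraries were above all Control libraries, library 1 by the most, but the gene did not pass the edgeR test (log2 fold change 0.68, SE 0.23, adjusted p = 0.486). Without NR3C2-OE library 1 its log2 fold change was 0.36. The labelled cell type was checked against marker lists. Of 6 epithelial markers, 5 had at least 1 FPKM on average (KRT8, KRT18, KRT19, KRT7 and EPCAM), while the cadherin gene CDH1 was at 0.165 FPKM or below in every library. Of 9 proximal tubule markers, LRP2, SLC22A6, SLC22A8 and ANPEP were absent from the deposited genes. Of the 5 with values, only GGT1 reached 1 FPKM on average, and CUBN, SLC34A1 and AQP1 were at or near 0. The summed FPKM of this list was 17.6 to 46.1 in Control and 51.8 to 57.6 in NR3C2-OE, nearly all of it GGT1, and its part in the results below was not tested. GGT1 was split within Control, at 16.3, 17.5 and 45.5 FPKM in libraries 1 to 3, beside 51.1 to 56.7 in NR3C2-OE. Endothelial and leukocyte markers summed to 0.411 FPKM or less in every library, and fibroblast markers to 12.6 to 15.4. The leukocyte markers PTPRC and CD3E and the fibroblast marker COL1A2 were absent as well. In bulk RNA of this kind, fewer cells with a transcript and less of it per cell cannot be told apart.

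CTDSPL (ENSG00000144677; chr3:37861960-37984469, plus strand, GENCODE 29 on GRCh38) was higher in NR3C2-OE than in Control. This difference was known when the group was assembled, so its values are given as a description. FPKM was 4.55, 4.59 and 3.73 across Control libraries 1 to 3 and 10.8, 9.37 and 10.0 across NR3C2-OE libraries 1 to 3. The lowest NR3C2-OE library lay above the highest Control library by more than the whole range within either group. Estimated counts scaled to library size (CPM) parted further, at 11.7, 12.5 and 9.59 in Control and 53.3, 45.3 and 48.2 in NR3C2-OE. The ratio of group means was 2.34 in FPKM and 4.34 in CPM, and the log2 fold change of the counts was 2.12 (SE 0.12). CTDSPL was the only 1 of the 10 genes called, where a call is an edgeR adjusted p below 0.05. Of all 21509 tested genes 6 were called, 0.0279%, and 3 of these were higher in NR3C2-OE, 0.0139%. Without Control library 1 CTDSPL was not called (edgeR adjusted p = 0.0523), although its log2 fold change was then 2.15. The other 5 fits that left out 1 library gave log2 fold changes of 2.02 to 2.20 with the call kept.

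**Figure D1:**
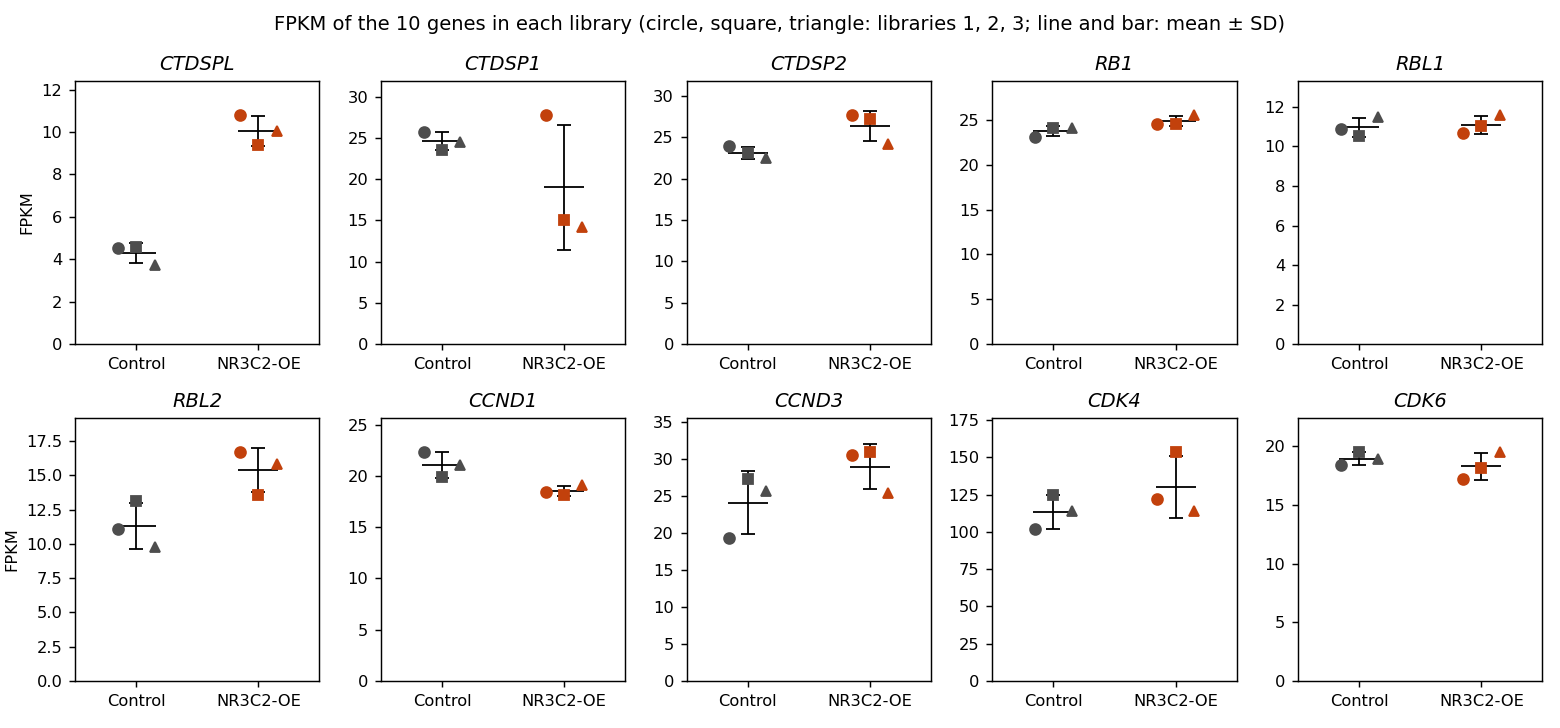
FPKM (vertical axes, from 0) of the 10 genes in the 3 Control (grey) and 3 NR3C2-OE (orange) libraries, with the group mean and SD. CTDSPL averaged 4.29 in Control and 10.1 in NR3C2-OE, and for CTDSP1 NR3C2-OE library 1 (27.7) stands apart from libraries 2 and 3 (15.1 and 14.1).

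The deposited counts and FPKM of CTDSPL gave different ratios, that is, its number of counts per FPKM differed between the groups. For a gene whose transcripts have a single length, estimated count over FPKM and library total gives that length. In 1448 tested genes with a single GENCODE 29 transcript and at least 1 FPKM, this quantity was 1.199 times the annotated length at the median, with quartiles of 1.196 and 1.207. Divided by that factor in each library, it is called the scaled length here. If gene values were summed over transcripts, which the sources used here do not state, it is the mean transcript length weighted by FPKM.

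The scaled length of CTDSPL was 2137, 2254 and 2120 bases across Control libraries 1 to 3 and 4111, 4092 and 4050 across NR3C2-OE libraries 1 to 3. The groups lay far apart, and within each group the libraries differed by little (2170 ± 73.0 against 4084 ± 31.0 bases, SD, n = 3 each). GENCODE 29 lists 8 CTDSPL transcripts. Both of the longest, of 4640 and 4459 bases, encode protein, and the next is 1482 bases and non-coding. Before scaling, the log2 difference in counts per FPKM was 0.91. Of 13720 tested genes with at least 1 FPKM, 8 had a larger positive difference, and 95% of genes lay between -0.22 and 0.22. Transcript-level values were not analysed here. Leaving out any 1 library kept the log2 difference between 0.89 and 0.93.

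**Figure D2:**
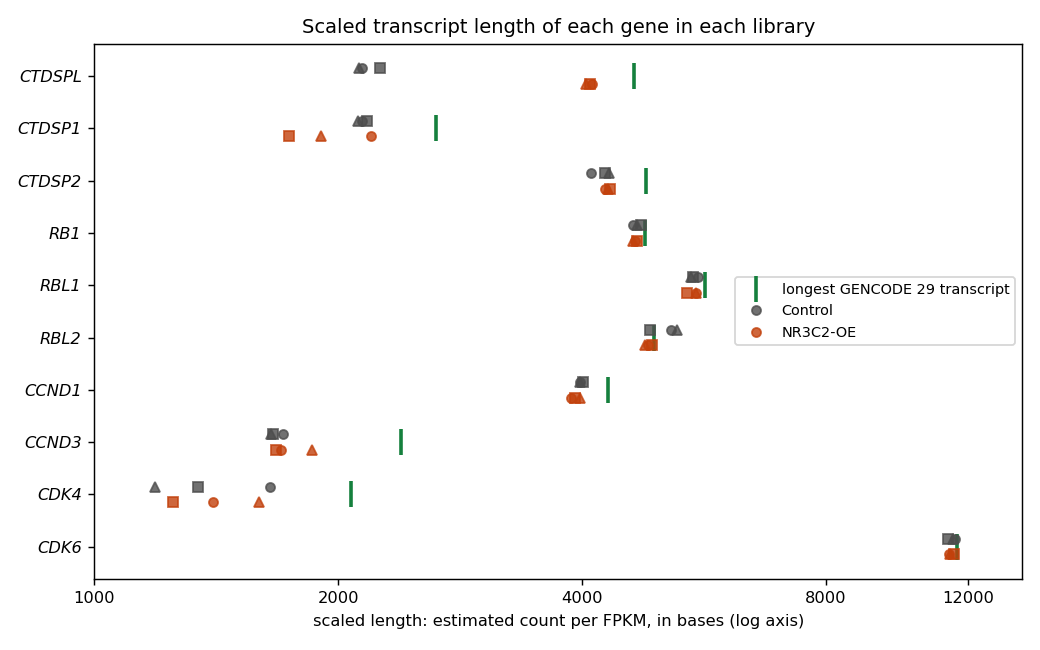
Scaled length in bases (log axis) of each gene in each library (Control grey, NR3C2-OE orange; circle, square and triangle are libraries 1, 2 and 3), with the longest GENCODE 29 transcript as a green bar. CTDSPL lies at 2120 to 2254 in Control and 4050 to 4111 in NR3C2-OE, while CTDSP2, RB1, RBL1 and CDK6 have close values in both groups.

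The scaled lengths of the other 9 genes differed far less between groups, with log2 differences in counts per FPKM of -0.15 to 0.05. RB1 had 4681 ± 54.2 bases in Control and 4650 ± 24.8 in NR3C2-OE, close to its longest annotated transcript of 4793 bases. CDK6 had 11462 ± 120 and 11440 ± 83.4 bases against 11612. RBL2 had 5083 ± 201 and 4833 ± 47.8 bases, and its highest Control value, 5242, exceeds the longest GENCODE 29 transcript of 4906. The sources used here do not give the annotation behind the deposited values. CDK4 had the widest relative spread within Control, 1189 to 1646 bases.

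CTDSP1 (ENSG00000144579), the phosphatase SCP1 that hosts MIR26B, was split within the NR3C2-OE group. Its FPKM was 25.7, 23.5 and 24.5 across Control libraries 1 to 3 and 27.7, 15.1 and 14.1 across NR3C2-OE libraries 1 to 3. Libraries 2 and 3 lay below every Control library, whereas library 1, which also had the highest NR3C2 level, lay above them all. CPM showed the same division, with 61.7 to 66.2 in Control and 73.1, 31.0 and 32.0 in NR3C2-OE. Over all libraries the log2 fold change was -0.49 (SE 0.34) and the gene was not called. Without NR3C2-OE library 1 it was -1.02, and the gene was then called lower (edgeR adjusted p = 0.0280). It was -0.28 without NR3C2-OE library 2 and -0.29 without library 3. Whether NR3C2 level, library or another difference goes with the split was not tested. The scaled length divided the libraries in the same way, at 2195 bases in library 1 against 1737 and 1904 in libraries 2 and 3, with 2114 to 2170 in Control.

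CTDSP2 (ENSG00000175215), the phosphatase SCP2 that hosts MIR26A2, had 23.9, 23.1 and 22.4 FPKM in Control libraries against 27.6, 27.2 and 24.2 with NR3C2-OE. Every NR3C2-OE library lay above every Control library, NR3C2-OE library 3 by the least. The log2 fold change was 0.19 (SE 0.060), and the gene was not called.

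Within the family, CTDSPL held 8.41%, 8.98% and 7.36% of the summed FPKM of the 3 phosphatases in Control and 16.3%, 18.1% and 20.7% in NR3C2-OE. The CTDSP1 share was 47.3% ± 1.23 in Control and 41.9%, 29.2% and 29.2% across NR3C2-OE libraries 1 to 3. CTDSP2 held 44.5% ± 0.525 in Control and 48.1% ± 5.67 in NR3C2-OE (SD, n = 3). The sum itself was 52.0 ± 1.89 FPKM in Control libraries against 55.4 ± 9.45 with NR3C2-OE. The groups overlapped in this total.

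**Figure D3:**
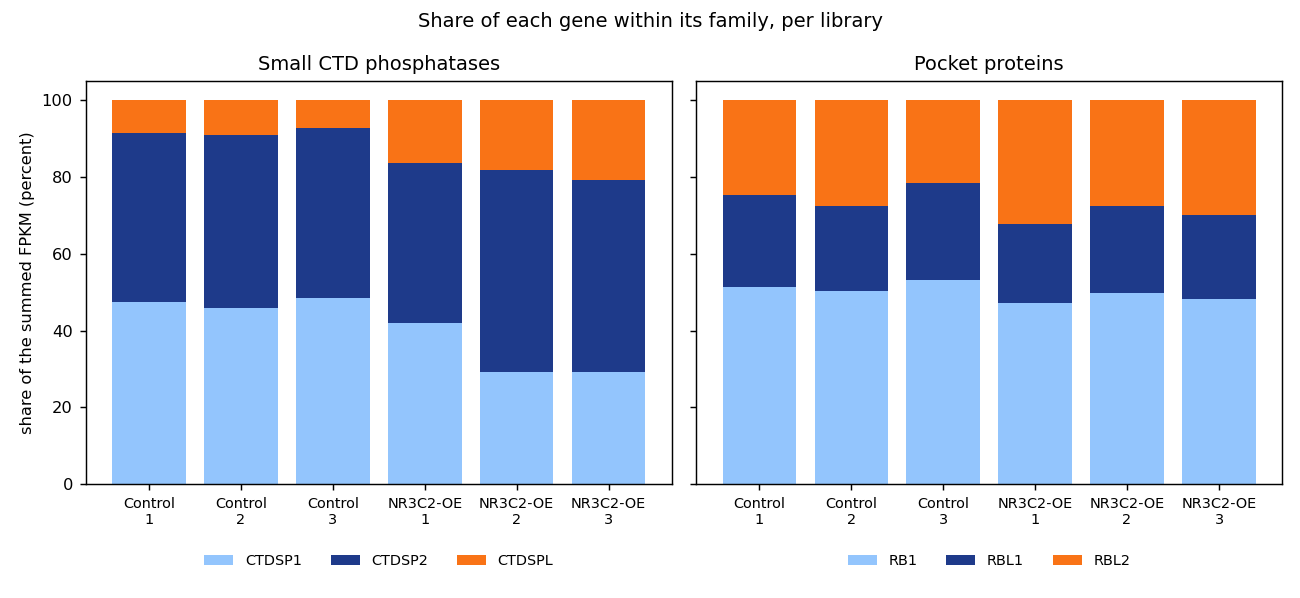
Share of each gene in the summed FPKM of its family (percent, stacked bars per library). The CTDSPL band widens from 7.36% to 8.98% in Control to 16.3% to 20.7% in NR3C2-OE, and the RBL2 band is 21.6% to 27.5% in Control and 27.7% to 32.1% in NR3C2-OE.

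Of the pocket proteins, RB1 and RBL1 had nearly equal levels in both groups and RBL2 was higher in NR3C2-OE. RBL2 (ENSG00000103479), the pocket protein of resting cells, had 11.1, 13.1 and 9.77 FPKM across Control libraries 1 to 3 and 16.7, 13.6 and 15.8 across NR3C2-OE libraries 1 to 3. The groups did not overlap, although the highest Control library (2) and the lowest NR3C2-OE library (2) lay close together. Its log2 fold change was 0.35 (SE 0.11), short of a call. RB1 (ENSG00000139687) had 23.1, 24.0 and 24.1 FPKM in Control libraries against 24.5, 24.5 and 25.5 with NR3C2-OE. These FPKM values did not overlap, although the CPM values did, and the log2 fold change of the counts was 0.03 (SE 0.045), between 0.0038 without Control library 1 and 0.05 without Control library 2. RBL1 (ENSG00000080839), itself an E2F target, had 10.9, 10.5 and 11.5 against 10.7, 11.0 and 11.6 FPKM. Its groups overlapped fully, with a log2 fold change of -0.0091. The 95% interval, -0.16 to 0.14, used the 4 residual degrees of freedom, not those of the edgeR test. The sign of the fold change turned positive on the FPKM scale and when Control library 3 or NR3C2-OE library 1 or 2 was left out. Of the summed pocket protein FPKM, RBL2 made up 24.5% ± 2.98 in Control and 29.9% ± 2.25 in NR3C2-OE. The share of RB1 was 51.6% ± 1.39 and 48.5% ± 1.34.

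The D cyclins had fold changes of opposite sign. CCND1 (ENSG00000110092) had 22.3, 19.9 and 21.0 FPKM across Control libraries 1 to 3 and 18.4, 18.2 and 19.1 across NR3C2-OE libraries 1 to 3, lower in every NR3C2-OE library. CCND3 (ENSG00000112576) had 19.3, 27.3 and 25.6 FPKM in Control libraries against 30.5, 30.9 and 25.4 with NR3C2-OE, where the groups overlapped through NR3C2-OE library 3. The CPM of CCND3 did not overlap (39.7 to 54.9 in Control, 55.9 to 62.3 in NR3C2-OE). The log2 fold changes were -0.23 (SE 0.055) for CCND1 and 0.30 (SE 0.12) for CCND3, and neither was called. CCND1 made up 53.6%, 42.1% and 45.1% of the FPKM of both cyclins in Control and 37.6%, 37.0% and 42.9% in NR3C2-OE. NR3C2-OE library 3 lies within the Control range. The counts of CCND3 without Control library 1, its lowest, gave a log2 fold change of 0.17.

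The FPKM of both kinases overlapped between the groups. CDK4 (ENSG00000135446) had 102, 125 and 114 FPKM in Control libraries against 122, 153 and 114 with NR3C2-OE, and CDK6 (ENSG00000105810) 18.4, 19.5 and 18.9 in Control and 17.2, 18.1 and 19.5 in NR3C2-OE. The log2 fold changes were 0.19 (SE 0.089) for CDK4 and -0.08 (SE 0.053) for CDK6, which was at -0.04 without NR3C2-OE library 1 and -0.12 without library 3. The CPM of CDK4 did not overlap (165 to 202 in Control, 205 to 226 in NR3C2-OE). Without Control library 3 its log2 fold change was 0.10. CDK4 overlaps TSPAN31 and MARCH9 on the other strand in GENCODE 29. In the same way RBL2 overlaps AKTIP (3.91 FPKM on average over the 6 libraries), CCND1 overlaps LTO1 (3.49) and RB1 overlaps RCBTB2 (2.30). The sources used here do not say whether the counting used strand, and the part of these overlaps in the differences was not tested.

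**Figure D4:**
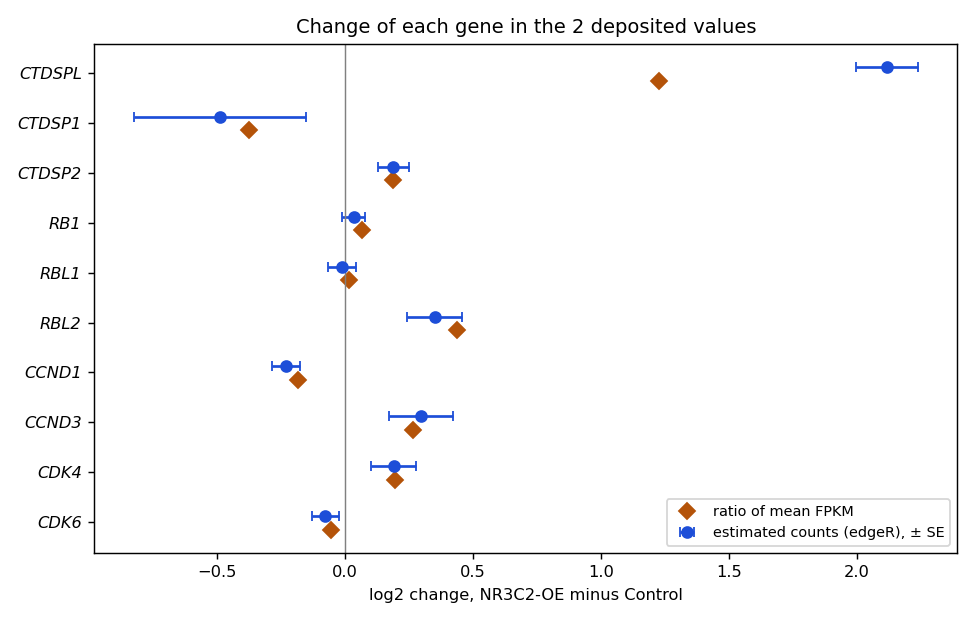
Log2 change, NR3C2-OE minus Control, of the 10 genes in the estimated counts (blue, edgeR fold change ± SE) and as the ratio of mean FPKM (brown). CTDSPL lies at 2.12 in counts and 1.23 in FPKM, and the other 9 genes lie between -0.49 and 0.44.

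In all, 4 of the 10 genes (CTDSPL, CTDSP2, RB1 and RBL2) had FPKM ranges that lay wholly higher in NR3C2-OE and 1 (CCND1) wholly lower. Among all tested genes the shares were 9.38% and 6.65%. At an unadjusted edgeR p below 0.05 stood 4 of the 10 (CTDSPL, CTDSP2 and RBL2 higher, CCND1 lower), beside 9.19% of all tested genes. The group was chosen with this contrast in view, so nothing is read from these counts. The median log2 fold change was 0.11 over the 10 genes and 0.00071 over all tested genes.

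The order of FPKM levels shows where CTDSPL stands. In Control, CDK4 was highest at 113 ± 11.5 FPKM. CTDSP1, CCND3, RB1 and CTDSP2 followed at 23.1 to 24.6, each overlapping its neighbour. CCND1 (21.1 ± 1.24) and CDK6 (18.9 ± 0.54) came next, each without overlap with the gene next above it by mean. The wider range of CCND3 (19.3 to 27.3) overlapped both. RBL2 (11.3 ± 1.69) and RBL1 (11.0 ± 0.47) followed and overlapped each other. CTDSPL was lowest at 4.29 ± 0.49, below every RBL1 value. In NR3C2-OE it was again last on average, at 10.1 ± 0.71 FPKM, but overlapped RBL1 at 11.1 ± 0.45. CTDSP1 stood in place 2 in Control and place 5 in NR3C2-OE. There it was at 19.0 ± 7.59 FPKM, with library 1 at 27.7, and overlapped RB1 above and CCND1 below.

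Of 13922 other tested genes with at least 1 FPKM in a group, those whose log2 CPM profiles lay nearest to CTDSPL over the 6 libraries were BLOC1S2, THRB, an unannotated gene from the assembly (new_gene34), CHMP1A and IRX4-AS1. Likeness was the root mean square difference after centring, and it ran from 0.45 for BLOC1S2 to 0.62 for IRX4-AS1. IRX4-AS1 had only 31 to 80 estimated counts per library. It met the limit of 1 FPKM through NR3C2-OE alone (0.69 on average in Control, 1.36 in NR3C2-OE). As CTDSPL differed mainly between the groups, this choice favours genes that are higher in NR3C2-OE. Their direction is therefore no separate result. The log2 fold changes of these genes (0.93 to 1.29) were below that of CTDSPL (2.12). BLOC1S2, part of the lysosome-related BLOC-1 and BORC complexes, and CHMP1A, a subunit of the ESCRT-III membrane machinery, were called higher (edgeR adjusted p = 0.0102 and 0.0476). In each fit without Control library 2 or 3, or NR3C2-OE library 1 or 2, 1 of these 2 calls was lost. Without Control library 1, CTDSPL and 1 of these 2 genes lost their calls. THRB, the thyroid hormone receptor beta, had 5.18 ± 0.38 FPKM in Control libraries against 10.3 ± 0.79 with NR3C2-OE and was not called (log2 fold change 1.13, SE 0.10, edgeR adjusted p = 0.0712). The differences in counts per FPKM of THRB, BLOC1S2 and CHMP1A were 0.17, 0.05 and -0.44 (log2), against 0.91 for CTDSPL. Of the other 9 genes of the group, RBL2 lay nearest (0.89) and CTDSP1 farthest (1.41).

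The wider pathway was followed in 95 further genes in 9 lists, all of them tested. In edgeR's test 0 were called in either direction, and 16 were higher and 8 lower at an unadjusted p below 0.05, where the shares of all tested genes were 4.43% and 4.76%. The DESeq2 Wald test called 4 higher (E2F1, TFDP2, MCM3 and MCM7) and 2 lower (CCNA2 and DYRK1A), beside 1.83% of all genes it adjusted. Where a gene below is said to be higher or lower at an unadjusted p, it did not pass edgeR's adjusted test.

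The listed E2F target genes were nearly all on the positive side. Of 20, 19 had positive log2 fold changes (median 0.13), 0 were called in edgeR's test and 8 were higher at an unadjusted p below 0.05. MCM7, a subunit of the replicative helicase, had 105, 97.4 and 97.4 FPKM in Control libraries against 119, 118 and 118 with NR3C2-OE (log2 fold change 0.23, SE 0.043, edgeR adjusted p = 0.263). All 3 NR3C2-OE libraries lay above Control. Its partners MCM3 (0.19) and MCM5 (0.28) and the licensing factor CDT1 (0.33) had the next smallest p-values. The list overlaps a cell cycle list known from earlier work on these data to lean this way, so it adds no independent support. The shares over all genes were 50.2% positive and a median of 0.00071. The 19 of 20 holds for the genes listed only. RBL1, an E2F target outside this list, had -0.0091. Cell cycle genes of the other lists had both signs, among them CCNE1 (0.27) and E2F1 (0.23) but CCNA2 (-0.28), CDK1 (-0.21) and MYBL1 (-0.24).

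Of 10 E2F and DP factors, 7 had positive values (median 0.12), 0 were called in edgeR's test and 3 were higher at an unadjusted p below 0.05. E2F1, the activating E2F bound by RB1, had 18.7, 19.9 and 19.4 FPKM in Control libraries against 22.2, 23.2 and 23.7 with NR3C2-OE (log2 fold change 0.23, SE 0.048, edgeR adjusted p = 0.304). TFDP2, which pairs with E2F proteins to bind DNA, had 12.8 ± 2.84 and 20.6 ± 0.42 FPKM, but a smaller difference in counts (log2 fold change 0.24, SE 0.042, edgeR adjusted p = 0.252). Values for both were separated between groups. The atypical repressors E2F7 and E2F8 had log2 fold changes of 0.14 and 0.18. The E2F4 and E2F5 genes, partners of RBL1 and RBL2, had 0.10 and -0.0083.

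Among 12 other cyclins and kinases, 0 were called in edgeR's test, 1 was higher at an unadjusted p below 0.05 and 3 were lower. Cyclin E1 (CCNE1), which with CDK2 completes RB1 phosphorylation, had 16.4, 17.7 and 16.6 FPKM in Control libraries against 20.7, 20.6 and 20.3 with NR3C2-OE (log2 fold change 0.27, SE 0.076). Cyclin A2 (CCNA2) went the other way, with 71.3 ± 1.198 and 59.8 ± 1.28 FPKM (log2 fold change -0.28, SE 0.037, edgeR adjusted p = 0.177). The mitotic kinase CDK1 (-0.21) and CCNH (-0.15), a subunit of the CDK-activating kinase, were the other 2. The FPKM of CCNH overlapped between the groups through NR3C2-OE library 2 (20.9 FPKM). CCND2, the third D cyclin, was low, at 0.75 to 1.04 FPKM over the 6 libraries.

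**Figure D5:**
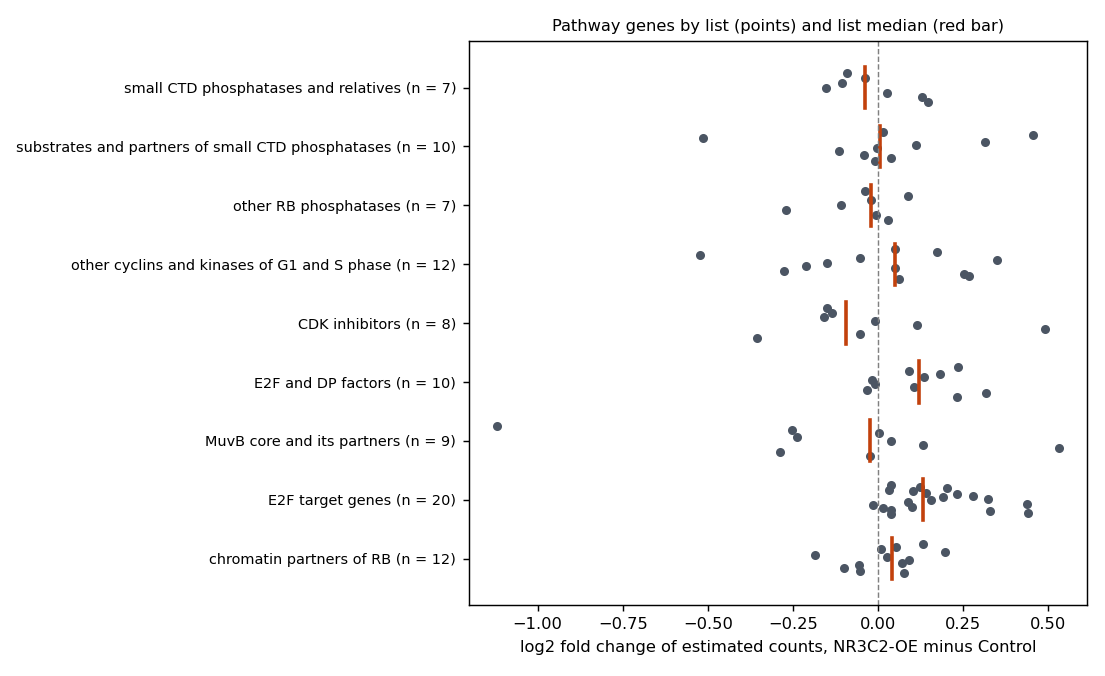
Log2 fold change of the estimated counts (horizontal axis, NR3C2-OE minus Control) for each pathway gene (points), with the median of each list (red bar) and of all tested genes (dashed line). E2F target genes have 19 of 20 points above 0 and a median of 0.13, CDK inhibitors a median of -0.09, and 0 of the 95 genes were called by edgeR.

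CDK inhibitors had 6 of 8 negative values (median -0.09), with 0 called in edgeR's test and 1 in each direction at an unadjusted p below 0.05. CDKN2C, the p18 inhibitor of CDK4 and CDK6, had 19.3 ± 0.59 and 17.9 ± 0.78 FPKM (log2 fold change -0.16, SE 0.057). Its NR3C2-OE library 3 (18.8 FPKM) lay just above Control library 2 (18.7 FPKM). CDKN1C, the p57 inhibitor, had a log2 fold change of 0.49 (SE 0.19). Its FPKM overlapped between the groups, whereas its CPM did not. Without NR3C2-OE library 1 CDKN1C was at 0.23. CDKN3, a phosphatase of cyclin-dependent kinases, had -0.15 (SE 0.083; -0.09 without NR3C2-OE library 2 and -0.24 without library 3), and CDKN2D, the p19 inhibitor, -0.14 (SE 0.099; -0.07 without NR3C2-OE library 1). CDKN2A, the gene of p16, which RB1 restrains, was the most abundant of the list, at 103 to 188 FPKM in Control and 147 to 184 in NR3C2-OE. The groups overlapped.

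MuvB, the core complex that RBL1, RBL2 and E2F4 join to repress cell cycle genes in resting cells, was represented by 9 genes with its partners. In edgeR's test 0 were called, and 1 was higher and 1 lower at an unadjusted p below 0.05. LIN52, the subunit through which pocket proteins bind MuvB, had 5.85, 3.85 and 3.59 FPKM in Control libraries against 6.74, 6.12 and 6.07 with NR3C2-OE (log2 fold change 0.53, SE 0.19). The kinase DYRK1A, which phosphorylates LIN52, had 3.77, 2.93 and 7.61 FPKM in Control libraries against 2.95, 1.91 and 2.20 with NR3C2-OE (log2 fold change -1.12, SE 0.29, edgeR adjusted p = 0.365). Its FPKM overlapped between the groups, with Control library 3 well above the other 5 libraries, whereas its CPM did not overlap. MYBL1 (-0.24) and LIN37 (-0.29) had the next smallest p-values. MYBL1 was at -0.13 without NR3C2-OE library 1 and -0.37 without library 3, and LIN37 at -0.14 without Control library 1 and -0.46 without Control library 3.

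Of 7 related phosphatases and 7 other RB phosphatases, 0 were called in edgeR's test. At an unadjusted p below 0.05, CTDSPL2 was higher (log2 fold change 0.15, SE 0.060) and UBLCP1, a proteasome phosphatase, lower (-0.15, SE 0.060), as was PPP1CC (-0.27, SE 0.097), a catalytic subunit of protein phosphatase 1, which dephosphorylates RB1 at mitotic exit. The log2 fold changes of TIMM50, RPAP2, PPP2CA, PPP2CB and PPP2R2A were -0.11, -0.09, -0.11, -0.02 and 0.09. Single libraries moved several of these small values: without NR3C2-OE library 1 TIMM50 was at -0.06 and PPP2CA at -0.05, without NR3C2-OE library 2 PPP2CA was at -0.18, and PPP2R2A was at 0.16 without Control library 2 and 0.03 without Control library 3. PPP1CC was at -0.17 without Control library 1.

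Of 10 substrates and partners, 0 were called in edgeR's test and 1 was higher and 1 lower at an unadjusted p below 0.05. MYC had 8.87, 13.5 and 13.4 FPKM in Control libraries against 7.94, 8.97 and 6.27 with NR3C2-OE (log2 fold change -0.51, SE 0.19), with overlap through Control library 1. TWIST1 had a log2 fold change of 0.45 (SE 0.17), SMAD3 0.31 (SE 0.19) and SNAI1 -0.12 (SE 0.090). SMAD3 was at 0.11 without Control library 3 and SNAI1 at -0.05 without NR3C2-OE library 3. The repressor REST had 7.37 ± 0.30 and 7.68 ± 0.64 FPKM. Of 12 chromatin partners of RB1, 0 had an unadjusted p below 0.05 and 0 were called by edgeR or DESeq2. The smallest p-values belonged to ARID4B, SMARCA2, KMT5B and RBBP7, with log2 fold changes of 0.13, 0.07, -0.18 and 0.09. KMT5B was at -0.02 without Control library 3, -0.28 without Control library 2 and -0.12 without NR3C2-OE library 2. RBBP7 was at 0.02 without NR3C2-OE library 1 and 0.05 without Control library 2, and ARID4B at 0.09 without Control library 3.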

How the data were processed

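RNA-seq of HK2 cells gave 3 Control and 3 NR3C2-OE libraries, described by a single deposited table. It holds FPKM and estimated counts per gene and library, made by the authors; the sums over libraries and the decimals identified which columns the deposited values of each unit were. The submitters' processing notes name cutadapt 1.2.1, a read trimmer; aligner, counter and genome build are not given in the sources read here. The deposited estimated counts are not plain tallies of reads (8694 values of 4 against 5772 of 3 and 5504 of 5), so counting intervals are not given.

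Genes were filtered with filterByExpr, scaled by TMM and tested with edgeR 4.0.16 (quasi-likelihood, R 4.3.3) on all 21509 genes that passed, with Benjamini-Hochberg adjustment and a threshold of 0.05. The 2 groups were compared without a replicate block. Alternatives used limma 3.58.1, DESeq2 1.42.0, other filters and scalings, and left out each library. The 10 genes and the pathway lists were chosen with earlier results of these data known. Named genes are the 10, NR3C2, in each pathway list the 4 of smallest p and those called, and the 5 nearest profiles to CTDSPL. Others (E2F4, E2F5, CCND2, CDKN2A and REST) were named after their values were seen. FPKM is a level per length; CPM is not. Of the proximal tubule markers, 1 is not reported here. Sequences come from RefSeq (GRCh38.p14) and GRCh38 with GENCODE 29.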

Additional observations from a re-analysis of the deposited data

How the results depend on the processing

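Over all tested genes 6 were called; leaving out 1 library gave 5 to 18, limma-trend on log2(FPKM + 0.1) 11, the DESeq2 Wald test 317 and the replicate block 0. Deviations of same-numbered libraries from their group means had correlations of 0.0266, 0.0158 and 0.0038. Control library 3 correlated best with NR3C2-OE library 2 (0.0232). Values this near 0, from 3 libraries a group, cannot decide whether the numbers pair the samples. Of the 10 genes 1 was called; leaving out 1 library gave 0 to 2 (0 without Control library 1, 2 without NR3C2-OE library 1), and the block and limma-trend on log2(FPKM + 1) gave 0. The log2 fold change of CTDSPL was 2.02 to 2.20 with 1 library left out. It was 2.12 under the block (adjusted p = 0.40) and 1.07 on log2(FPKM + 1) (limma adjusted p = 0.0522), and the cause of the lost calls was not tested. Of the 95 pathway genes 0 were called in every fit that left out 1 library, and 6 by DESeq2.

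Of 52 named genes, log2(FPKM + 1) moved the log2 fold change of 20 by over 1.5 times and log2(FPKM + 0.1) that of 16; leaving out 1 library moved 5 to 10. On these FPKM scales the sign turned for RBL1 (0.015 and 0.016), PPP2CA (0.096 and 0.098) and PPP2CB (0.108 and 0.109). Leaving out 1 library gave RBL1 -0.0454 to 0.0225 and PPP2CB -0.0461 to 0.0115 (0.00657 without NR3C2-OE library 3). From counts, which weight longer transcripts more, the shares in Control and NR3C2-OE were 5.83% and 21.5% for CTDSPL, 33.0% and 19.1% for CTDSP1, 61.2% and 59.4% for CTDSP2, 48.6% and 46.1% for RB1, 26.4% and 24.3% for RBL1, 67.7% and 59.2% for CCND1 and 41.8% and 46.5% for CDK4. The leave-one-out values of counts per FPKM were chosen after seeing the data. In Control, CTDSPL had the fewest estimated counts of the 10 genes, 1075 to 1260, and 3 libraries a group limit every estimate.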
